A study of Mus musculus with 24 samples.

Results

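Laminin chains and integrin subunits are the proteins, secreted and membrane-bound, that attach a muscle fibre to its basement membrane. The genes described were the protein-coding genes whose symbol begins with Lama, Lamb, Lamc, Itga or Itgb followed by a digit, together with Itgad, Itgae, Itgal, Itgam, Itgav and Itgax, and without Itgb1bp1. This gave 40 of the 55416 genes counted, namely 11 laminin chains, 18 integrin alpha subunits, 9 integrin beta subunits and 2 genes that the naming rule takes in although they encode no subunit. Of these 2, Itgb1bp2 encodes melusin, a muscle protein that binds the inner end of the beta1 subunit, and Itgb3bp encodes a centromere protein.

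The mice were C57BL/6J of both sexes, bought at 8 weeks of age, and no engineered allele is named for any group. Gastrocnemius RNA of 24 of them was sequenced, 6 in each of 4 groups. Male SMC and female SMC mice had been kept for 8 weeks in a small mouse cage (SMC), which restricts movement, while male sham and female sham mice stayed ambulatory. The study asked how inactivity impairs the ability of muscle to switch between carbohydrate and lipid fuels. RNA sequencing served there to compare the sexes, beside measurements of metabolism, mitochondrial respiration and membrane lipids. The restriction applies to the whole animal rather than to this muscle.

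A laminin is a cross-shaped trimer of an alpha, a beta and a gamma chain, and an integrin is a dimer of an alpha and a beta subunit that spans the cell membrane. In skeletal muscle the laminin built on the alpha2 chain (Lama2) lines each fibre and is held by dystroglycan and by the alpha7 beta1 integrin (Itga7 and Itgb1), and inherited loss of the alpha2 chain or of the alpha7 subunit causes muscle disease. Vessels in the muscle carry laminins with the alpha4 and alpha5 chains (Lama4, Lama5), the neuromuscular junction is rich in the beta2 chain (Lamb2), and beta2 integrins are carried by leukocytes.

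Library totals ranged from 23026627 to 36880413 counts, and the sex-specific transcripts matched the label in 24 of 24 libraries. Fast fibre genes summed to between 66499 and 152220 CPM (counts scaled to a fixed library size after TMM normalization), as in fast muscle. Male sham 4 and female sham 7 stood apart by slow fibre genes that summed to 91.4 and 76.4 CPM, against 715 CPM or more in the other 22 libraries. Female sham 11 stood apart by keratinocyte genes, described with the chains of epidermal laminin. Of the 40 genes, 37 had enough counts to be tested among 16408 genes in all. The others were Lama1, Itgad and Itgb2l, with at most 10, 2 and 3 counts in any library. Their levels could not be measured at this depth.

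Levels between genes were compared as CPM per kilobase of exon. Itgb1 (ENSMUSG00000025809), the beta subunit shared by most matrix receptors, was the highest, with a mean level of 36.3 ± 3.90 CPM per kilobase (SD over 24 mice). Melusin followed at 31.9 ± 4.07, and the next were Lamb2 at 27.5 ± 3.82, Itgb5 (a partner of alpha v) at 22.1 ± 3.32 and Lamc1 at 19.9 ± 2.40 on the same scale. Among the alpha subunits, Itga7 was the highest at 8.97 ± 0.992 CPM per kilobase, followed by Itgav at 5.06 ± 0.583 and Itga6, another laminin receptor, at 4.24 ± 0.763. Lama2 lay at 7.46 ± 1.22 and Lama5 at 6.46 ± 0.999, so that on this scale, which depends on the exon lengths used, these chains differed by less than the SD of Lama2. The leukocyte alpha subunits were at the bottom, from 0.217 ± 0.247 CPM per kilobase for Itgax to 0.0716 ± 0.0362 for Itgae, and Itgb2, the beta subunit of leukocytes, lay at 0.987 ± 0.440. On the plot of levels by mouse Itgb1, melusin, Lamb2, Itgb5 and Lamc1 thus stand at the top and the leukocyte alpha subunits at the bottom. Which cells made each transcript was not measured. In whole muscle, fewer cells of a type and less RNA per cell cannot be told apart, which holds for every difference below.

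**Figure D1:**
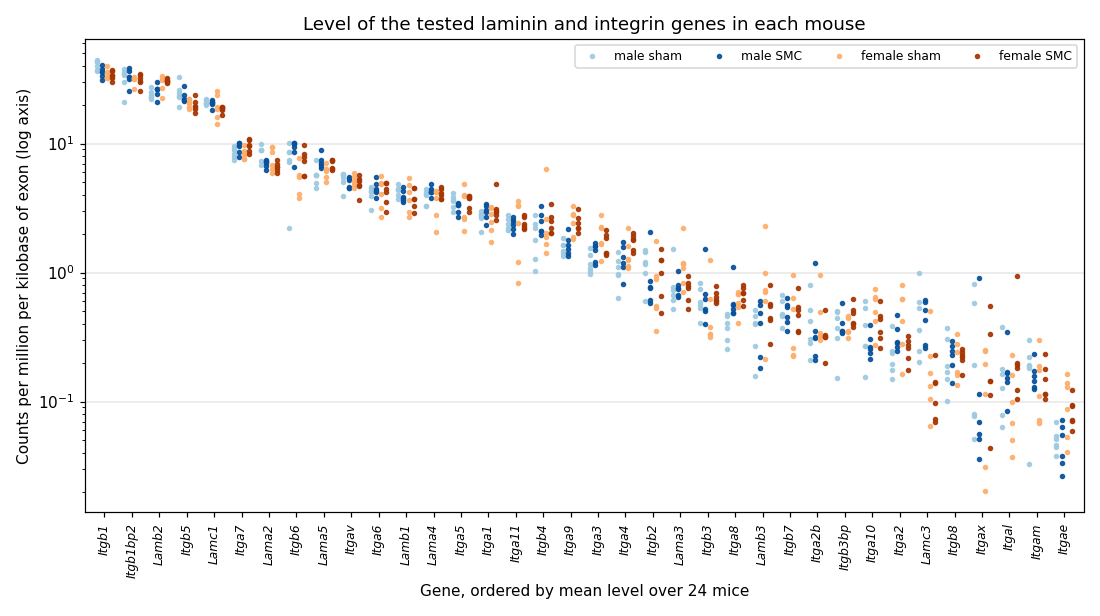
Level of the tested genes described here in each of the 24 mice, in CPM per kilobase of exon on a log axis, with genes ordered by their mean over 24 mice and groups by colour. Itgb1 leads with a mean of 36.3, Itga7 is the highest alpha subunit at 8.97, and the leukocyte subunits Itgax, Itgal, Itgam and Itgae close the order.

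The composition of the laminin transcripts differed by chain. By level per length, Lamb2 made up 83.7 ± 1.36% of the beta chain transcripts in male sham and 85.8 ± 3.03% in female sham (SD, n = 6), with Lamb1 at 15 ± 1.0% and 11.3 ± 2.17%. Of the alpha chain transcripts, Lama2 held 44.9 ± 4.12% in male sham, Lama5 30.1 ± 3.87%, Lama4 20.8 ± 3.54% and Lama3 4.22 ± 1.55%. In male SMC mice Lama2 held 36.4 ± 3.18% and Lama5 37.4 ± 3.66%. In females the share of Lama2 was 41.5 ± 5.58% in sham and 36.1 ± 2.09% in SMC, and that of Lama5 was 33.0 ± 6.01% and 37.4 ± 2.28%. Per length, Lama5 thus had a mean share above that of Lama2 in both SMC groups, by less than the SD of either, and below it in both sham groups. This order depends on the exon lengths used, 16338 bases for Lama2 and 11388 for Lama5, each over all annotated exons of the gene. In CPM, Lama2 had the higher mean in both SMC groups, 115 against 82.5 in males and 108 against 78.1 in females.

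To ask whether SMC altered these genes, each sex was tested with edgeR's quasi-likelihood test, with p-values adjusted over all 16408 genes (FDR) and a call at an FDR below 0.05. In males 0 of the 37 passed, and so did 0% of all genes. At an unadjusted p below 0.05 there were 4 of 37, against 11% of all genes. DESeq2 called 1 of these 37 (Itga8) against 0.921%, and gave no adjusted p for Itgae in males. In females 0 of the 37 passed, against 0.341% of all genes, and 7 of 37 had an unadjusted p below 0.05, against 12.5%, while DESeq2 called 0 of 37 against 1.57%. In the mean of the male and the female response, which uses all 24 mice, 0 of the 37 passed, against 2.36% of all genes, and 9 of 37 had an unadjusted p below 0.05, against 17.5%. DESeq2 called 3 of 37 in that mean (Itga8, Lama2 and Lama5), against 4.51%. The median log2 fold change over the 37 was 0.035 in males, -0.025 in females and -0.0030 in the mean of both, beside -0.0044, -0.011 and -0.0089 over all genes. Without Itgb1bp2 and Itgb3bp, the counts below an unadjusted p of 0.05 stayed at 4, 7 and 9 of 35. The plot of responses by role shows each estimate with its error.

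**Figure D2:**
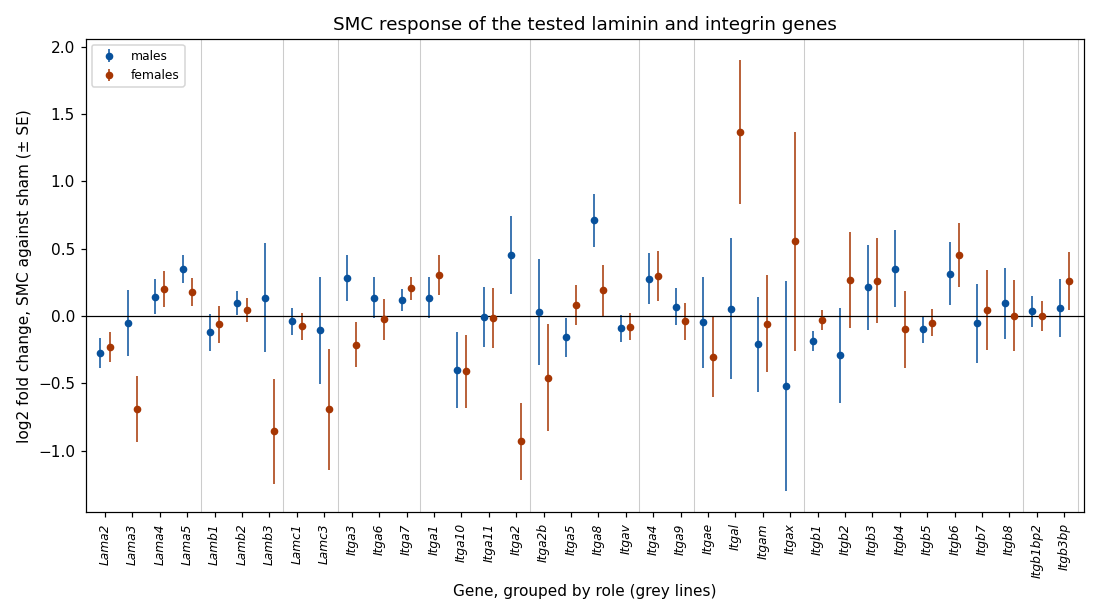
log2 fold change of SMC against sham with its standard error, in males and in females, for the tested genes described here, grouped by role (laminin alpha, beta and gamma chains, laminin-, collagen- and RGD-binding alpha subunits, alpha4 and alpha9, leukocyte alpha subunits, beta subunits, and the 2 genes that are no subunit). No estimate reached an FDR of 0.05 in either sex, and the widest bars belong to the low leukocyte subunits Itgax and Itgal.

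Among the alpha chains, Lama5 (ENSMUSG00000015647) came closest to the threshold. Its CPM in male sham mice was 51.4 at the lowest, 64.9 at the median and 85.3 at the highest, and in male SMC mice it was 73.2, 79.7 and 102. In females the values were 57.0, 70.8 and 81.1 in sham and 70.5, 78.6 and 84.4 in SMC. The SMC groups lay higher, with overlap in both sexes, and in males the overlap came from male sham 4 (85.3 CPM) alone. The log2 fold change was 0.35 (edgeR FDR 0.201, SE 0.105) in males, 0.18 (edgeR FDR 0.518, SE 0.105) in females and 0.27 (edgeR FDR 0.0563, SE 0.0744) in the mean of both. In fits without a single library the mean response passed in 2 of 24, without male sham 4 (0.31, edgeR FDR 0.0162) or female sham 11 (0.29, edgeR FDR 0.0420). It was lowest, at 0.23, without male SMC 17, the mouse with 102 CPM, and the edgeR FDR reached 0.0926 in these fits. With both of those sham libraries and female sham 7 left out it was 0.35 (edgeR FDR 0.0118). With DESeq2 it was 0.27 (adjusted p = 0.0216).

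Lama2 (ENSMUSG00000019899), the chain of the fibre's own laminin, had lower means in SMC mice of both sexes. Male sham mice had 111, 145 and 162 CPM (lowest, median, highest) and male SMC mice 102, 117 and 123. Female sham mice had 96.6, 126 and 154 CPM and female SMC mice 96.3, 107 and 122, so the groups overlapped in both sexes and the sham mice were more spread. The log2 fold change was -0.27 (edgeR FDR 0.353, SE 0.111) in males, -0.23 (edgeR FDR 0.398, SE 0.111) in females and -0.25 (edgeR FDR 0.0852, SE 0.0784) in the mean. Its mean response passed in 2 of 24 fits without a single library, those without male sham 3 (-0.28, edgeR FDR 0.0498) or female sham 7 (-0.29, edgeR FDR 0.0373). It was -0.22 without female sham 12, the edgeR FDR reached 0.142 in these fits, and without the 3 libraries that stood apart it was -0.32 (edgeR FDR 0.0218). The partners of the alpha2 chain had smaller responses. Lamc1 had a mean response of -0.057 (SE 0.0706), Lamb2 of 0.071 (SE 0.0631) and Lamb1 of -0.091 (SE 0.0974) on the log2 scale, and Lama4 had 0.17 (edgeR FDR 0.339, SE 0.0922).

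The 250 bases before the RefSeq start of Lama5 (GRCm38.p6, chr2:180225860-180226109, minus strand) and of Lama2 (GRCm38.p6, chr10:27616943-27617192, minus strand) are shown because these alpha chains gave mean responses of opposite sign. Capitals mark CACCTG (the E-box read by myogenic and Snail-type factors), GGGCGG (the GC box) and AGAACA (the core of the element read by glucocorticoid and androgen receptors), each on either strand, in sequence 5' to 3' along the gene.
Lama5: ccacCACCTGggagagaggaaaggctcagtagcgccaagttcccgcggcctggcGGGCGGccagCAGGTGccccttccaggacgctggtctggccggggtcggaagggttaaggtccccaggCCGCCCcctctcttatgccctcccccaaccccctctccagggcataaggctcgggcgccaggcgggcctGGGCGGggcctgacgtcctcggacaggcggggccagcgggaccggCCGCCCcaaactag
Lama2: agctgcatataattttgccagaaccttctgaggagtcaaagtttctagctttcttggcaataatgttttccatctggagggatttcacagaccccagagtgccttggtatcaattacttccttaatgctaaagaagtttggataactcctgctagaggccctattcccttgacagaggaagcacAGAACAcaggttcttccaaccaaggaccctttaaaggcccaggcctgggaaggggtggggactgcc
The Lama5 window held CACCTG 2 times and GGGCGG 4 times, and the Lama2 window held AGAACA 1 time. Over 32851 promoter windows of this length in the RefSeq table, 17.2% held CACCTG, 32.7% GGGCGG and 16.1% AGAACA, and 25 of the 40 genes had a window there. A match is a stretch of letters and no evidence that a factor binds.

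The receptor of the fibre's laminin is made of Itga7 and Itgb1. Itga7 (ENSMUSG00000025348) had 60.2, 69.8 and 78.1 CPM in male sham mice, 63.2, 77.9 and 81.9 in male SMC, 61.0, 67.0 and 78.4 in female sham and 67.4, 77.8 and 88.5 in female SMC (lowest, median, highest). Its log2 fold change was 0.12 (SE 0.0846) in males, 0.21 (SE 0.0846) in females and 0.16 (edgeR FDR 0.147, SE 0.0598) in the mean. Itgb1 had 150, 169 and 180 CPM in male sham mice and 127, 147 and 165 in male SMC, a log2 fold change of -0.18 (edgeR FDR 0.355, SE 0.0755). In female sham and SMC mice Itgb1 had medians of 139 and 137 CPM and a log2 fold change of -0.031 (SE 0.0755). Both genes had overlapping groups in both sexes.

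Itga8 (ENSMUSG00000026768), the receptor subunit for nephronectin that marks smooth muscle and related cells, was the only 1 of the 37 genes whose groups did not overlap between sham and SMC males, where 0.902% of all genes did not overlap. Male sham mice had 1.88, 2.87 and 3.54 CPM and male SMC mice 3.56, 3.98 and 8.09. The gap between the highest sham and the lowest SMC mouse was thus small, and male SMC 14 held the value of 8.09. The log2 fold change in males was 0.71 (edgeR FDR 0.170, SE 0.194), or 0.47 without male SMC 14. In females the medians were 4.63 and 5.11 CPM, with overlap and a log2 fold change of 0.19 (edgeR FDR 0.744, SE 0.190). The mean response was 0.45 (edgeR FDR 0.0724, SE 0.135), and the difference between the sexes was 0.52 (edgeR FDR 0.955, SE 0.271). In females, 0 of the 37 genes had groups without overlap, against 1.03% of all genes.

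Pericyte and smooth muscle genes were higher on average in the same SMC mice. Of the 7 genes in that list, 7 had a positive log2 fold change in each sex, against 8052 of all 16408 genes in males and 7813 in females. In the mean of both sexes 3 rose, against 2.36% of all genes called in either direction. These were Acta2 by 0.73, Myh11 by 0.57 and Cnn1 by 1.11 on the log2 scale (edgeR FDR 0.00866, 0.0112 and 0.0475). The list summed to 349 to 521 CPM in male sham mice, 505 to 555 in male SMC, 365 to 510 in female sham and 471 to 548 in female SMC, and no gene of it had a median count of 0. Of 9 endothelial cell genes, 8 had a positive log2 fold change in males and 6 in females, and 0 passed in either sex or in the mean. The part of pericytes, smooth muscle cells and endothelial cells in the values of Itga8 and Lama5 was not tested.

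**Figure D3:**
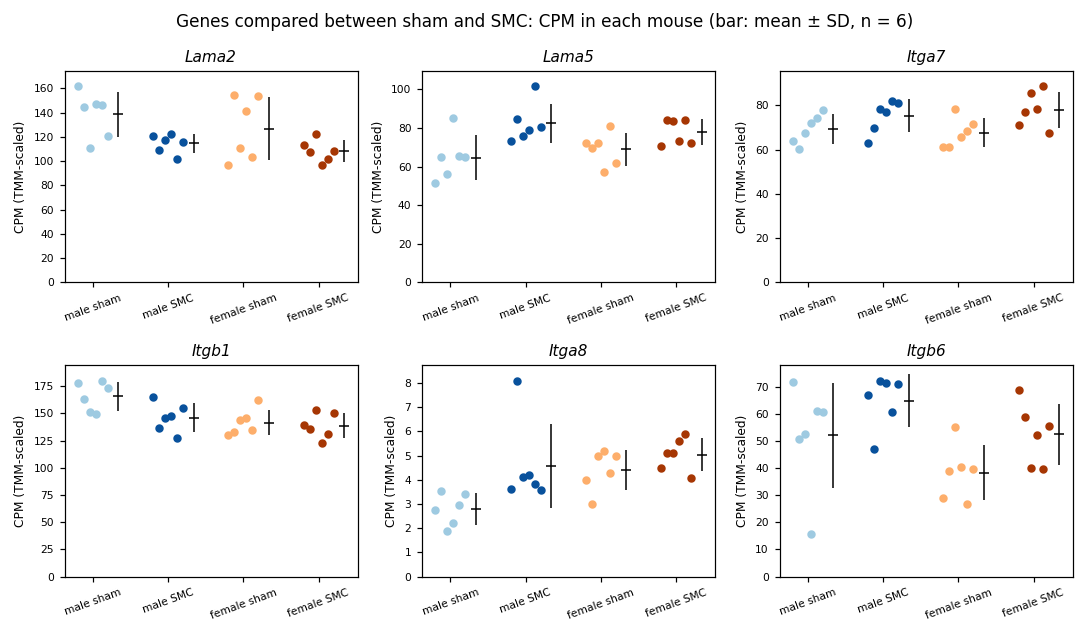
CPM of 6 genes in each mouse, with the mean and SD of each group of 6 as a black bar. Lama5 and Itga8 sit higher and Lama2 and Itgb1 lower in male SMC than in male sham mice, with overlap for each but Itga8, and male sham 4 is the low point of Itgb6 at 15.8 CPM.

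Of the beta subunits, 0 of 8 tested passed in either sex. Itgb6, which pairs with alpha v and releases latent TGF-beta, had the largest mean response among them, 0.38 (edgeR FDR 0.217, SE 0.165). It had 15.8, 56.8 and 71.8 CPM in male sham mice and 47.0, 69.2 and 72.4 in male SMC, and 26.7, 39.4 and 55.3 in female sham and 39.9, 54.0 and 68.8 in female SMC. Male sham 4, low in slow fibre genes, held the lowest value. The mean response was 0.29 without it and 0.19 without the 3 libraries that stood apart. Itgb5 had a mean response of -0.073 (SE 0.0697). Melusin had 0.017 (SE 0.0804) and Itgb3bp 0.16 (SE 0.151), and the exons of Itgb3bp share 398 bases with the opposite strand of Pgm1.

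The remaining integrin subunits had mean responses between -0.40 for Itga10, a collagen receptor subunit of cartilage, and 0.29 for Itga4, which binds fibronectin and VCAM-1 (edgeR FDR 0.285 and 0.255). Itga10 shares 1739 exonic bases with the gene model Gm42957 on the same strand, so its count is uncertain. Itga4 had 8.86, 14.5 and 20.3 CPM in male sham and 11.5, 17.5 and 24.2 in male SMC mice, and 15.1, 17.7 and 30.7 in female sham and 19.9, 25.2 and 28.2 in female SMC. Its medians were higher in SMC mice of both sexes, with overlap in each. The fibronectin receptor subunits Itga5 and Itgav had -0.037 (SE 0.103) and -0.084 (SE 0.0707), and the collagen receptor subunits Itga1 and Itga11 had 0.22 (SE 0.106) and -0.0091 (SE 0.158) on the log2 scale. Itga6 and Itgb4, which pair as a laminin receptor, had 0.055 (SE 0.108) and 0.13 (SE 0.203).

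The leukocyte subunits were low and scattered. Itgal, the alpha subunit of lymphocyte LFA-1, had 0.244, 0.546 and 1.51 CPM in female sham and 0.688, 1.22 and 6.14 in female SMC mice, a log2 fold change of 1.36 (edgeR FDR 0.264, SE 0.533). Female SMC 21 held the value of 6.14, and without it the log2 fold change was 0.55. For Itgam, Itgax and Itgb2 the log2 fold changes were -0.21, -0.52 and -0.29 in males and -0.056, 0.55 and 0.27 in females, with standard errors between 0.352 and 0.813. Itgam shares 3450 exonic bases with the gene model Gm49368 on the same strand, so its count depends on how shared reads were assigned. Macrophage genes summed to 46.0 to 201 CPM in the sham females and 80.5 to 113 in the SMC females, and 0 of the 9 in that list passed in either sex.

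The chains Lama3 and Lamb3 belong to epidermal laminin, which anchors keratinocytes through the alpha6 beta4 integrin. Female sham 11 held 137 CPM of Krt5, 77.0 of Krt14, 84.0 of Krt1 and 294 of Krt10, against at most 0.438, 0.182, 0.292 and 0.729 CPM in the other 23 mice. Over the 8 keratinocyte genes it summed to 774 CPM, and the other libraries to 9.20 to 29.9 CPM, most of it Trp63, and 6 of the 8 had a median count of 0. It also held the highest values of Lama3 (23.7 CPM), Lamb3 (15.1), Itgb4 (44.5), Itga6 (50.8) and Itga3 (16) of all 24 mice. For Itga6 the next value was close, 49.3 CPM in male SMC 18. The plot of epidermal laminin against keratinocyte genes shows this for Lama3 and Lamb3.

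In females the log2 fold changes with SMC were -0.69 (edgeR FDR 0.204, SE 0.243) for Lama3 and -0.85 (edgeR FDR 0.358, SE 0.389) for Lamb3. Without female sham 11 they were -0.42 and -0.36. In males they were -0.053 and 0.14, with standard errors of 0.244 and 0.403. The sham females other than female sham 11 held 7.61 to 12.7 CPM of Lama3, a range that overlapped the 5.6 to 10.1 CPM of SMC females. The gamma chain Lamc3 had log2 fold changes of -0.10 (SE 0.398) in males and -0.69 (SE 0.452) in females.

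**Figure D4:**
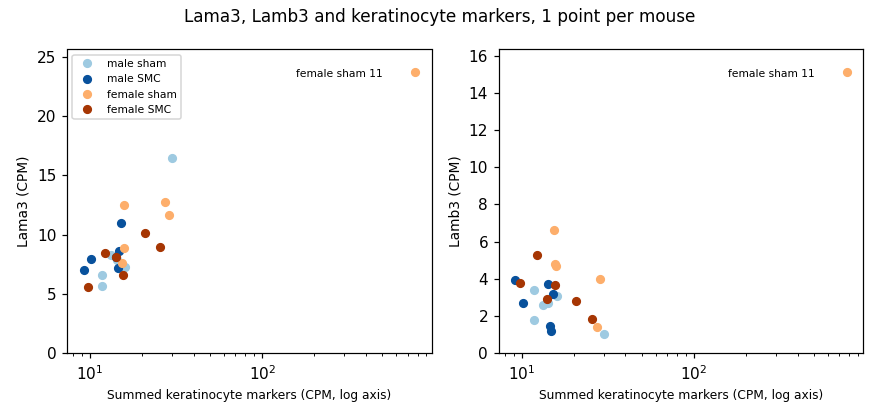
CPM of Lama3 and Lamb3, chains of epidermal laminin, in each mouse against the summed CPM of 8 keratinocyte genes on a log axis. Female sham 11 stands alone at 774 CPM of keratinocyte genes and is the highest mouse for both chains.

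Subtracting the female from the male response asked directly whether the sexes responded differently, and 0 of 37 genes passed, as did 0% of all genes. DESeq2 also called 0 of 37, against 0.00298%. At an unadjusted p below 0.05 there were 2 of 37, against 5.13% of all genes, and these were Itga2 and Itga3. Itga2 (ENSMUSG00000015533), a collagen receptor subunit of platelets and epithelia, had 1.1, 1.55 and 2.77 CPM in male sham mice and 1.76, 2.05 and 3.35 in male SMC, but 1.17, 3.73 and 5.73 in female sham and 1.26, 1.89 and 2.30 in female SMC. The responses were 0.45 (edgeR FDR 0.607, SE 0.289) in males and -0.93 (edgeR FDR 0.137, SE 0.285) in females, and their difference was 1.38 (edgeR FDR 0.926, SE 0.406). The spread lay in the female sham mice, of which 4 were above every SMC female, female sham 9 lay within their range and female sham 7 below it. For Itga3 the difference was 0.50 (edgeR FDR 0.955, SE 0.238), from 0.28 in males and -0.21 in females.

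The comparison of sham males with sham females showed where the sexes differed without SMC. Of the 37 genes, 2 passed, Itga9 and Itga3, against 1.97% of all genes, and both were lower in males, against 1.14%. DESeq2 called 6 of 37, against 3.27%. At an unadjusted p below 0.05 there were 12 of 37, against 15.5% of all genes, with 3 higher (against 6.23%) and 9 lower (against 9.23%) in males. In this comparison 0 of the 37 had groups without overlap, against 1.13% of all genes. The 12 mice with SMC gave the same contrast in other animals, and there 2 of the 37 passed, Itga9 and Lamc3, against 1.03% of all genes.

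Itga9 (ENSMUSG00000039115) pairs with beta1 to bind tenascin-C and osteopontin. Sham males had 10.3, 12 and 14.3 CPM and sham females 14, 20 and 25.1, so that only the highest male and the lowest female overlapped. The mean was 12 ± 1.43 CPM in sham males and 19.3 ± 4.36 in sham females (SD, n = 6), a log2 fold change of -0.68 (edgeR FDR 0.0101, SE 0.139). SMC males had 10.3, 12.1 and 16.6 CPM and SMC females 15.7, 17.8 and 24, with a log2 fold change of -0.57 (edgeR FDR 0.0411, SE 0.138). In sham mice Itga9 passed in 24 of 24 fits that left out a single library, with log2 fold changes from -0.76 to -0.59. In SMC mice it passed in 11 of 24 such fits, with values from -0.67 to -0.49 and the largest edgeR FDR of 0.114 without female SMC 21. Each set of 24 includes fits without a mouse of the other treatment, which leave the compared mice unchanged. The call in SMC mice was lost without male SMC 13, 14, 15, 16 or 18, or without female SMC 19, 21, 23 or 24. It was also lost without male sham 1, 2 or 5 or female sham 9. A fit on the 12 sham libraries alone gave -0.67 (edgeR FDR 0.0643). Its responses to SMC were 0.071 (SE 0.139) in males and -0.039 (SE 0.137) in females.

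Itga3 (ENSMUSG00000001507) encodes a receptor subunit for laminins with the alpha3 or alpha5 chain. Sham males had 5.57, 6.39 and 8.90 CPM and sham females 7.0, 11.1 and 16, with a log2 fold change of -0.72 (edgeR FDR 0.0257, SE 0.169). The call was lost without male sham 1, male sham 2, male sham 6, female sham 11 or female sham 12, where the edgeR FDR was 0.0675, 0.0548, 0.0586, 0.0654 and 0.0503 and the log2 fold change -0.66, -0.71, -0.69, -0.59 and -0.67. The value of -0.59 was that without female sham 11, the library with keratinocyte genes. On the 12 sham libraries alone the log2 fold change was -0.71 (edgeR FDR 0.138). SMC males had 6.51, 8.81 and 9.65 CPM and SMC females 7.78, 9.32 and 12.3, a log2 fold change of -0.22 (edgeR FDR 0.722, SE 0.168). Both alpha subunits pair with beta1, whose own level went the other way, at 166 ± 13.4 CPM in sham males and 141 ± 11.8 in sham females, a log2 fold change of 0.23 (edgeR FDR 0.116, SE 0.0755).

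The promoter windows of Itga9 (GRCm38.p6, chr9:118711442-118711691, plus strand) and Itga3 (GRCm38.p6, chr11:95076715-95076964, minus strand) are given because these were the genes that passed in sham mice, with the same capitals as above.
Itga9: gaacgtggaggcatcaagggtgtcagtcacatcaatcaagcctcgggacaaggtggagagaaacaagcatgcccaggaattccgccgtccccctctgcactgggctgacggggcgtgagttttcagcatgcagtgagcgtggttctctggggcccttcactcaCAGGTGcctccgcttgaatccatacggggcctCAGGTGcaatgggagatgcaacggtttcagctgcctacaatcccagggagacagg
Itga3: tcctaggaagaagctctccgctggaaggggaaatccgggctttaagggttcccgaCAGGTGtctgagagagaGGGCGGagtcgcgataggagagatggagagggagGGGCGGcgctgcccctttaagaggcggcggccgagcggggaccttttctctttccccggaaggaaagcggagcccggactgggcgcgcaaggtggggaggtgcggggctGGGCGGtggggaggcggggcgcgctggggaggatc
The Itga9 window held CACCTG 2 times and neither of the other motifs. The Itga3 window, the first of 2 starts in the table, held CACCTG 1 time and GGGCGG 3 times, and AGAACA was found in neither window.

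Lamc3 (ENSMUSG00000026840), a laminin gamma chain, was higher in SMC males than in SMC females. SMC males had 1.59, 2.88 and 3.73 CPM and SMC females 0.422, 0.721 and 1.41, so these groups did not overlap, the only 1 of the 37 genes of which this held, against 2.08% of all genes. The log2 fold change was 1.85 (edgeR FDR 0.0343, SE 0.438). It passed in 15 of 24 fits without a single library, with values from 1.72 to 2.08 and the largest edgeR FDR of 0.0911 without female SMC 19. The fits without a sham mouse leave the mice compared here unchanged, and all of them kept the call. It was lost without male SMC 13, 14, 15 or 17, or without female SMC 19, 20, 22, 23 or 24, so it depended on most of the mice compared. In sham mice the values were 1.23, 2.71 and 6.04 CPM in males and 0.394, 0.904 and 3.09 in females, with a log2 fold change of 1.26 (edgeR FDR 0.119, SE 0.418). Female sham 11 held the value of 3.09, and without it the log2 fold change was 1.79 (edgeR FDR 0.0200). Male sham 4 held the value of 6.04, and without it the log2 fold change was 0.95 (edgeR FDR 0.205). The sham contrast passed in 1 of 24 fits without a single library. The counts behind these values were low, with a median of 41.5 over the 24 libraries.

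Among the other laminin chains, Lamb2 had lower means in males in both sets of mice. It had 134, 142 and 167 CPM in sham males and 137, 192 and 203 in sham females, a log2 fold change of -0.31 (edgeR FDR 0.0731, SE 0.0893), and -0.25 (edgeR FDR 0.252, SE 0.0893) in SMC mice. Female sham 11 held the lowest female value of 137, and without it the log2 fold change was -0.37 (edgeR FDR 0.0169). Lama2, Lama4, Lama5, Lamb1 and Lamc1 had log2 fold changes between -0.094 and 0.13 in sham mice. Lamb3 had -1.32 (edgeR FDR 0.0826, SE 0.395), or -0.82 without female sham 11, and Itga8 had -0.66 (edgeR FDR 0.0780, SE 0.194). Itga2 had -1.06 (edgeR FDR 0.0518, SE 0.285) in sham mice and 0.32 (edgeR FDR 0.788, SE 0.289) in SMC mice. Itgb5 had 0.27 in sham and 0.22 in SMC mice, with edgeR FDR of 0.171 and 0.431.

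Schwann cell genes also had lower levels in sham males. Of the 8 in that list, 8 had a negative log2 fold change, against 8271 of all 16408 genes, and 0 passed. Their sums ran from 48.6 to 102 CPM in sham males and from 67.4 to 185 in sham females. Tendon cell genes summed to 167 to 305 CPM in sham males and 202 to 769 in sham females, with 6 of 7 lower in males and 0 past the threshold. No gene of either list had a median count of 0. The part of these cells in the sex differences was not tested.

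**Figure D5:**
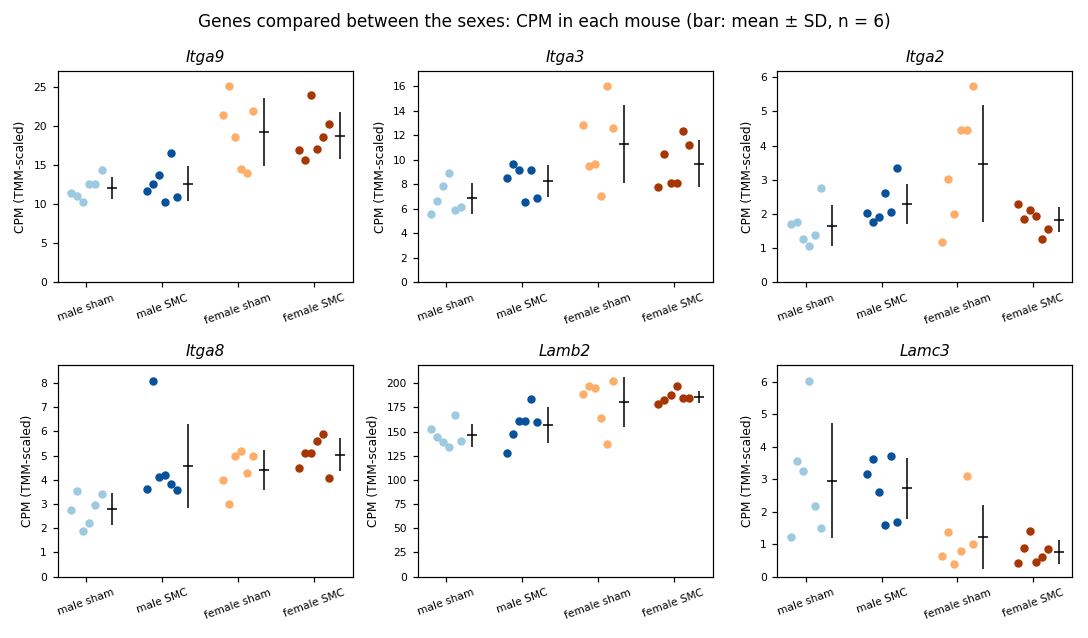
CPM of 6 genes in each mouse, with the mean and SD of each group of 6 as a black bar. Itga9 is lower in males among both sham and SMC mice, the sham females hold the highest values of Itga3 and Itga2, and Lamc3 separates SMC males from SMC females without overlap.

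Genes that work beside these chains gave few calls. Of 24 tested proteins of the adhesion complex inside the cell, 1 rose with SMC in the mean of both sexes, against 2.36% of all genes called. This was Flna, filamin A, which ties integrin tails to actin, at 127 ± 14 CPM in male sham, 177 ± 37.9 in male SMC, 146 ± 17.8 in female sham and 172 ± 24.2 in female SMC (SD, n = 6), a log2 fold change of 0.36 (edgeR FDR 0.0250, SE 0.0832). Filamin A is also abundant in smooth muscle, and the part of those cells in its change was not tested. Of 15 partners of laminin in the basement membrane, 0 passed with SMC in males, in females or in the mean, and at an unadjusted p below 0.05 there were 0, 4 and 3 of 15, against 11%, 12.5% and 17.5% of all genes. In females 13 of the 15 had a negative log2 fold change, against 8593 of all 16408 genes, and in males 11 of the 15 a positive one, against 8052. Egflam (pikachurin) and Col18a1 had 0.23 and 0.20 in males (edgeR FDR 0.475 and 0.616), and the collagen IV chains Col4a1 and Col4a2 had -0.52 and -0.42 in females (edgeR FDR 0.218 and 0.225).

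Of 20 tested genes of the dystroglycan and dystrophin complex, the other anchor of the fibre's laminin, 0 passed with SMC, and 2 of 20 had an unadjusted p below 0.05 in each sex, against 11% of all genes in males and 12.5% in females. In sham mice 1 of the 20 passed between the sexes, against 1.97% of all genes. This was the syntrophin Sntb1, at 7.71 ± 1.51 CPM in males and 14.5 ± 3.42 in females, a log2 fold change of -0.91 (edgeR FDR 0.0158, SE 0.198). Of 18 other matrix ligands of integrins, 0 passed with SMC. In females 15 of the 18 had a negative log2 fold change, with a median of -0.28, against 8593 of all 16408 genes. In males 12 of the 18 had a positive one, with a median of 0.064, against 8052 of all genes. Fibroblast genes, a list that shares Col1a1 and Col3a1 with these ligands, had a negative value for 7 of 8 in females and 6 of 8 in males. Of these genes, 0 passed in either sex, and they summed to 467 to 1478 CPM in sham females and 568 to 804 in SMC females. Between sham males and females 1 of the 18 ligands passed, against 1.97% of all genes. This was Npnt, which encodes nephronectin, the ligand of the alpha8 beta1 integrin. It had 9.43 ± 2.92 CPM in sham males and 3.43 ± 0.872 in sham females, a log2 fold change of 1.45 (edgeR FDR 0.00275, SE 0.255). The receptor subunit Itga8 had 2.79 ± 0.655 and 4.41 ± 0.823 CPM in the same mice, the opposite order.

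Chains that pair in a protein were asked whether they varied together from mouse to mouse, as deviations of log2 CPM from the group means over 24 mice, with permutation p-values within groups adjusted over 6 pairs. Lama2 and Lamc1 had r = 0.65 (rho = 0.35, adjusted permutation p = 0.0595 and 0.357), and Lama4 and Lamc1 had r = 0.66 (rho = 0.58, adjusted permutation p = 0.0969 and 0.0964). For Itgam and Itgb2, r was 0.48 (rho = 0.35, adjusted permutation p = 0.0595 and 0.343). Leaving out the 2 mice farthest from the median of the first gene gave r of 0.64, 0.53 and 0.24, so that the leukocyte pair rested on those mice. Unadjusted permutation p-values of r for these pairs were 0.0198, 0.0485 and 0.0194. Itga7 and Itgb1 had r = -0.026 (rho = 0.049), Itga6 and Itgb4 r = 0.17 (rho = 0.10) and Lama2 and Lamb2 r = 0.20 (rho = 0.14), with adjusted permutation p-values between 0.681 and 0.910 for r and between 0.793 and 0.833 for rho. Thus 0 of the 6 pairs passed.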

How the data were processed

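The authors made directional libraries from ribosome-depleted gastrocnemius RNA of 24 mice. The submitters' processing notes name cutadapt 1.16, STAR 2.7.9a, featureCounts 1.6, DESeq2 1.34.0 and GRCm39. The deposited values are raw counts per Ensembl gene, with 1 column per mouse. Neither the annotation release nor how strand was handled in counting is given in the sources used here, so reads of a gene and of an overlapping gene on the other strand cannot be told apart (Itga4, Itga8, Itgav, Itgb3bp, Itgb4, Lama2, Lama3, Lamc3). Itga1, Itga10 and Itgam share exons with models on the same strand.

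Groups follow the labelled sex and treatment. Counts were filtered by filterByExpr, scaled by TMM and fitted with 1 mean per group over all 24 libraries by edgeR 4.0.16 (R 4.3.3), with two-sided tests and Benjamini-Hochberg adjustment over 16408 genes. Log2 CPM used a prior count of 2, and exon lengths came by identifier from GENCODE mouse release M21, of another build, so no gene coordinates are given. Promoters are of RefSeq, GRCm38.p6. Permutation tests drew 100000 resamples. The common biological coefficient of variation was 0.206. Over 60 pairs of libraries within groups, chi-square divided by its degrees of freedom was at least 10.7, so none agreed within sampling noise. The fits were tested on simulated data.

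Genes, partner and marker lists and alternatives were chosen with earlier results of these data known. Described are members past the threshold, the 5 with the smallest p in each contrast, the chains of the fibre, the leukocyte subunits, the 6 highest chains and those with a median count of 0, and from partner lists those past the threshold or, failing that, the 2 with the smallest p in each sex. Itga1, Itga4, Itga5, Itga6, Itga10, Itga11, Itgae, Itgav, Itgb4 and Lamc3 were named after their values were seen. The values of 1 member are not reported here, although it is counted among those tested. Alternatives were RLE size factors, DESeq2 1.42.0, other filters, only the 12 libraries compared, voomWithQualityWeights (limma 3.58.1), a slow fibre covariate and left-out libraries. Leaving out male sham 4, female sham 7 and female sham 11 together, and comparing SMC males with SMC females, were added after the data were seen.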

Additional observations from a re-analysis of the deposited data

Results flagged for a closer look

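In each group of 6 mice the highest and lowest log2 CPM were compared with the others by Dixon's ratio at its 95% critical value. This covered most of the genes described, but not Itga5, Itga6, Itga10, Itga11, Itgav, Itgb3bp and Itgb4. Of 104 groups, 11 held a mouse past it, and chance gives about 1 in 20 groups. Male sham 4, a library low in slow fibre genes, was the mouse in 4 of the 11, female sham 11 in 1 and female sham 7 in 0.

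Male sham 4 had 38.5 CPM of Itga1 (a collagen receptor subunit) against 49.7 to 55.6 in the other sham males, and 15.8 CPM of Itgb6 against 51.0 to 71.8. It had 0.166 CPM of Itgam against 0.919 to 1.51, and 16.4 CPM of Lama3 against 5.65 to 8.25. Female SMC 21 had 91.0 CPM of Itga1 against 47.4 to 57.3 and 6.14 CPM of Itgal against 0.688 to 1.32. Without female SMC 21, the mean response of Itga1 was 0.14, against 0.22 with it (edgeR FDR 0.273, SE 0.106). Male SMC 14 had 8.09 CPM of Itga8 against 3.56 to 4.19.

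Male SMC 17 had 4.35 CPM of Itgax against 0.173 to 0.547, and 6.31 CPM of Itgb2, the beta subunit that pairs with it, against 1.77 to 2.61. Macrophage genes summed to 108 CPM in that mouse and 79.9 to 111 in the other SMC males. Female sham 11 had 47.9 CPM of Itgb1bp2 against 56.8 to 58.7, and female SMC 22 had 138 CPM of Lamc1 against 150 to 158.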

How the results depend on the processing

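No member passed with SMC under RLE size factors or without a filter, and none passed in the difference between the sexes under any alternative. With DESeq2, members called numbered 1 in males (Itga8), 3 in the mean of both sexes (Itga8, Lama2, Lama5) and 6 between sham males and females (Itga2, Itga3, Itga8, Itga9, Lamb2, Lamb3). With voomWithQualityWeights 1 passed in males and 1 in the mean, Lama5 in each (0.567% of all genes passed in males), and with at least 10 counts in every library 1 passed in the mean (Lama5). Without male sham 4 and female sham 7, 1 passed in females (Itga2, against 0.936% of all genes), 2 in the mean (Lama2, Lama5) and 5 between the sham sexes. With the slow fibre covariate the numbers were 2 (Itga2, Lamb3, against 1.14%), 2 and 5. Without these and female sham 11, 2 passed in the mean (Lama2, Lama5) and 3 between the sham sexes (Itga2, Itga9, Lamb2). On the 12 sham libraries alone 0 passed (against 0.371% of all genes), and 9 had an unadjusted p below 0.05 in edgeR. Over all genes the share called in the mean ran from 0.557% without a filter to 4.47% with the covariate and 4.51% with DESeq2. Between the sham sexes it ran from 0.371% to 4.22%. Of the 12 members with an unadjusted p below 0.05 between the sham sexes, the contrast had the other sign in SMC mice for Itga2 (0.32) and Lama3 (0.063), neither past the threshold, and members outside these 12 were not compared here. The cause of these shifts was not tested.

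Leaving out 1 library gave 0 members in males, in females and in the difference between the sexes, 0 to 1 in the mean and 1 to 5 between the sham sexes. The mean gained Lama2 without male sham 3 or female sham 7 and Lama5 without male sham 4 or female sham 11. Between the sham sexes 1 was called without male sham 1 or 2, 4 without male sham 4 (with Itgb6 and Lama3) and 5 without female sham 7 (with Itga2, Itgae and Lamb3). The shares of all genes called in these single-library fits are not given here, so these counts cannot be read as particular to the members. Without male sham 4 and female sham 7 together, 3.09% of all genes were called between the sham sexes, against 1.97% with all libraries. Correlations ranged from -0.064 to 0.18 for Itga7 and Itgb1, -0.15 to 0.28 for Itga6 and Itgb4, -0.0067 to 0.32 for Lama2 and Lamb2, 0.37 to 0.62 for Itgam and Itgb2 (past the threshold in 2 of 24) and 0.57 to 0.70 for Lama2 and Lamc1 (in 1 of 24). No paired analysis was made, because the labels used here name no cage or housing pair. The paper housed sham and SMC mice in pairs for some experiments and in separate cages for others. Which of these held for the sequenced mice is therefore not known here. Low counts limit Lama1, Itgad, Itgb2l and the leukocyte subunits.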
